A study of Mus musculus with 2 samples.

Results

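The cells described here were taken as alveolar type 1 (AT1) cells from dissociated newborn mouse lung by their RNA. They were chosen by the measured levels of 4 genes. A cell was kept where Ager, the gene of the receptor RAGE, had at least 3 unique molecular identifiers (UMIs, each a tag on 1 captured RNA molecule) and at least 20 per 10000 UMIs of that cell. It had to hold Sftpc, the gene of surfactant protein C and a marker of alveolar type 2 (AT2) cells, at under 300 per 10000 UMIs, with under 2 UMIs of the endothelial gene Pecam1 and under 3 UMIs of the collagen gene Col1a2. Cells with over 10% of their UMIs from mitochondrial genes were left out first. The gate held 418 of the 8003 cells that remained, 92 of 2388 in Batch 1 (3.85%, exact 95% binomial interval 3.12 to 4.70) and 326 of 5615 in Batch 2 (5.81%, 5.21 to 6.45). These and all later intervals cover counting error only. The study profiled the cell types present in the lung at birth. Both mice were wt C57BL/6J at PND1 (postnatal day 1), cells came from the left and right lobes together, and 1 mouse made up each batch, so mouse and batch cannot be told apart. There was 1 group and no treatment, mutant or second age, so every comparison below is between classes of cells within the same mice. Pairs of values are given for Batch 1 and then for Batch 2.

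AT1 cells are the very thin, spread-out epithelial cells that cover most of the gas-exchange surface of the lung and share a basement membrane with the capillary endothelium. AT2 cells are compact cells that make and store surfactant, and they can give rise to AT1 cells. Before birth the distal epithelium holds progenitors with genes of both cell types, and around birth the alveolar surface is still being formed. Ager, Hopx (an unusual homeodomain protein without DNA binding), Aqp5 (a water channel) and Pdpn (podoplanin, a membrane mucin-like protein) are in common use as AT1 markers.

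The files held 9944 cell barcodes, 2389 and 7555, none shared between the batches. The mitochondrial limit removed 1 cell of Batch 1 and 1940 of Batch 2. The AT1 cells had a median of 1654 UMIs in Batch 1 (753 to 7796) and 2020 in Batch 2 (754 to 35547), and a median of 959 and 1045.5 genes. Summed over cells they gave 186096 and 918434 UMIs. Median mitochondrial shares were 1.51% and 6.20%. Scrublet, a doublet caller, marked 2.136% and 2.137% of the filtered cells, among them 0 and 6 AT1 cells.

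The other 7585 cells were divided with the same genes. Of these, 981 (170 and 811) were rich in Sftpc (at least 300 per 10000 UMIs) without meeting the Ager gate and are called Sftpc-rich cells. Another 214 (56 and 158) met the Ager gate and were also rich in Sftpc. Both of these classes also kept to the Pecam1 and Col1a2 limits. Cells with at least 2 Pecam1 UMIs but under 3 Col1a2 UMIs numbered 1076 (Pecam1 cells). Cells with at least 3 Col1a2 UMIs but under 2 Pecam1 UMIs numbered 2116 (Col1a2 cells). The other 3198 cells remained, with any that were over both limits among them.

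The values that chose the cells are given as a description. Ager lay at a median of 70.2 per 10000 UMIs in the AT1 cells of Batch 1 (20.9 to 141) and 48.9 in Batch 2 (20.5 to 144), from a median of 13 and 10 UMIs. Sftpc had a median of 6.44 and 11.5 per 10000, and 26 and 47 AT1 cells held no Sftpc UMI. At the edge of the Ager gate, 16 AT1 cells had exactly 3 Ager UMIs and 62.5% of them held Hopx, from a median of 1146 UMIs. The 8 cells just outside, with 2 Ager UMIs at 20 or more per 10000, held Hopx in 37.5%. They were few and shallower, with a median of 789.5 UMIs. At the edge of the Sftpc limit, the 33 AT1 cells with 200 to 300 Sftpc per 10000 had a median of 4804 UMIs, and Hopx and the surfactant gene Sftpb were each detected in 93.9%. The 43 cells just beyond it (300 to 400) had a median of 6914 UMIs, and each gene was detected in 97.7%. A further 15 and 13 cells met the Ager gate and the Sftpc limit but held too many Pecam1 or Col1a2 UMIs. Cells on either side of the Sftpc limit thus held Hopx and Sftpb in like shares, and 73.3% of the Sftpc-rich cells (719 of 981) still held at least 1 Ager UMI.

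**Figure D1:**
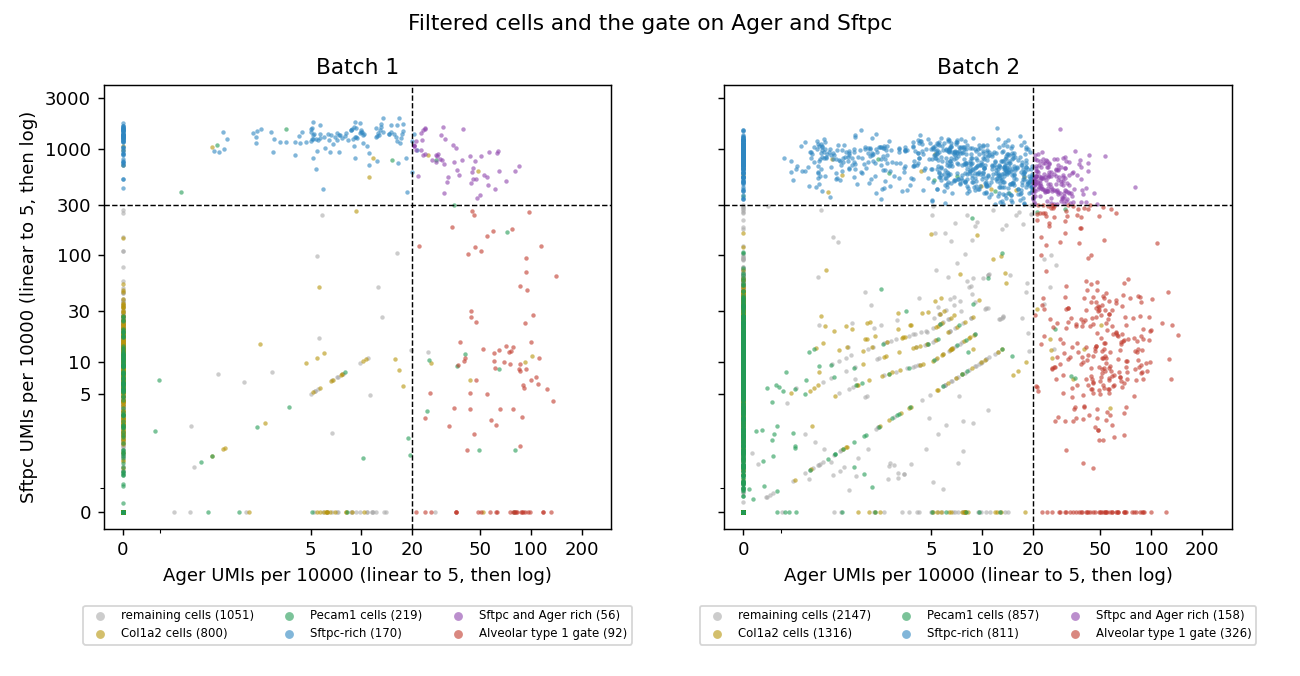
Ager (horizontal) against Sftpc (vertical) in each filtered cell of Batch 1 and Batch 2, both in UMIs per 10000 UMIs of the cell, on axes that are linear up to 5 and logarithmic above, with dashed lines at the gate (20 for Ager, 300 for Sftpc). Red points are the AT1 cells (92 and 326), purple the cells rich in Sftpc and Ager (56 and 158), blue the Sftpc-rich cells (170 and 811), and green, ochre and grey the Pecam1, Col1a2 and remaining cells. Most AT1 cells lie well under the Sftpc limit, and a smaller number run up to it beside the purple points.

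The label was checked on Hopx, Aqp5 and Pdpn, which the gate did not use. Hopx was detected in 83.7% of AT1 cells of Batch 1 (Wilson 95% interval 74.8 to 89.9) and in 84.7% of Batch 2 (80.3 to 88.2). Aqp5 was detected in 67.4% (57.3 to 76.1) and 78.8% (74.1 to 82.9), and Pdpn in 47.8% (37.9 to 57.9) and 66.9% (61.6 to 71.8). At least 2 of the 3 genes were present in 81.1% of AT1 cells, 191 of the 418 held all 3, and 14 held none. By contrast at least 2 were present in 23.9% of the Sftpc-rich cells and 3.07% of the Pecam1 cells.

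Free RNA in the droplets can give UMIs in cells that do not express a gene, so the Pecam1 and Col1a2 cells were taken as a background. Whether these classes express the 3 genes was not tested, and 15 and 13 of their cells met the Ager gate and the Sftpc limit. Pecam1 cells, with deeper libraries than the AT1 cells (median 2048 and 2821 UMIs), held Hopx in 22.8% and 23.7%, Aqp5 in 5.94% and 2.10%, and Pdpn in 10.0% and 3.15%. Col1a2 cells (1479.5 and 1931.5 UMIs) held Hopx in 5.00% and 4.71%, Aqp5 in 1.25% and 3.04%, and Pdpn in 6.13% and 3.19%. With every cell thinned to 600 UMIs, AT1 cells still held Hopx in 60.9% and 45.7%, Aqp5 in 40.2% and 43.6%, and Pdpn in 17.4% and 32.2%. All 3 markers thus lay above the background in both mice, and the AT1 label was kept. Sftpc-rich cells held Hopx in 12.9% and 47.2%, Aqp5 in 11.2% and 33.0%, and Pdpn in 12.4% and 17.1%, from a median of 2083.5 and 3962 UMIs.

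**Figure D2:**
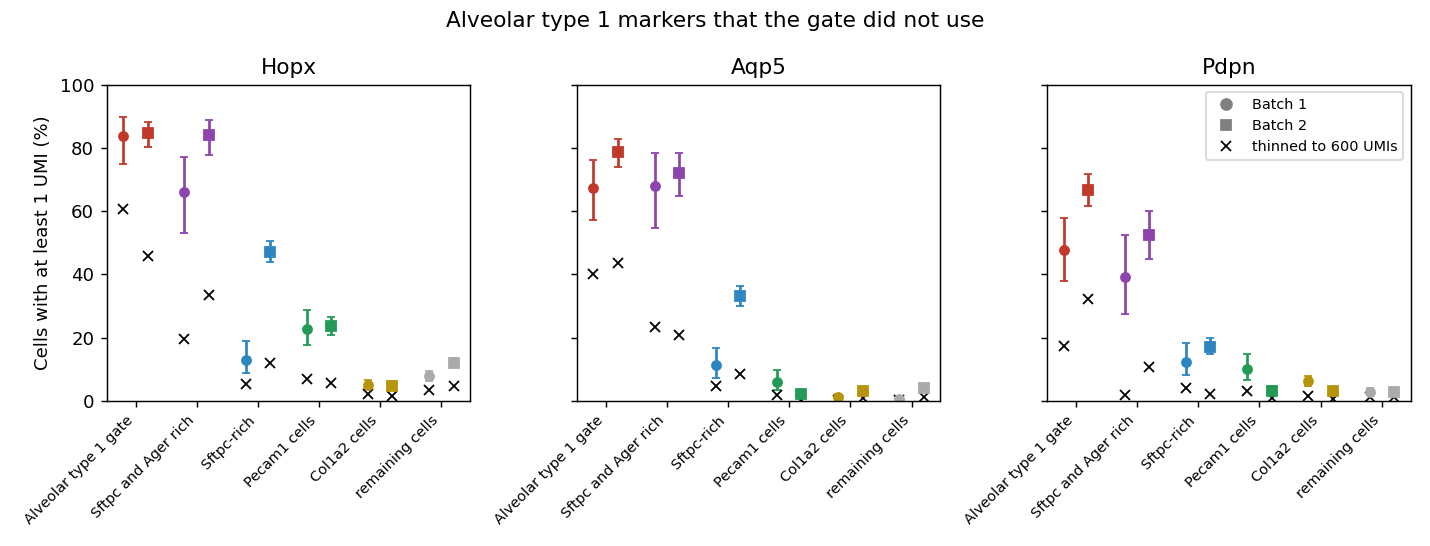
Percent of cells with at least 1 UMI of Hopx, Aqp5 and Pdpn in each class of cells and batch. Circles (Batch 1) and squares (Batch 2) are shares, bars are Wilson 95% intervals over cells, which are not replicates, and crosses are the shares after thinning to 600 UMIs. AT1 cells are at 83.7% and 84.7% for Hopx, and the Pecam1 and Col1a2 cells lie below 25% for all 3 genes.

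Markers of other cell types were counted in the AT1 cells before any comparison. The 6 AT2 markers (Sftpb, Abca3, Slc34a2, Lpcat1, Napsa, Lamp3) summed to 185 and 2834 UMIs, or 9.94 and 30.9 per 10000 UMIs. The Sftpc-rich cells had 168 and 139, and the Pecam1 cells 7.37 and 4.23. At least 2 AT2 marker UMIs were present in 20 of 92 and 162 of 326 AT1 cells (21.7% and 49.7%). The 6 endothelial markers (Cdh5, Emcn, Cldn5, Plvap, Egfl7, Ramp2) summed to 340 UMIs in Batch 1 and 88 in Batch 2, or 18.3 and 0.958 per 10000 UMIs, with 68.7 and 64.5 in the Pecam1 cells and 2.35 and 0.450 in the Sftpc-rich cells. At least 2 such UMIs were present in 38 of 92 AT1 cells of Batch 1 (41.3%) but in 11 of 326 of Batch 2 (3.37%), and none of the 6 genes was at 0. Batch 1 AT1 cells thus carried endothelial RNA that those of Batch 2 largely lacked, and the list counts that follow were also made without these cells. Its part in the results was not tested beyond that. Mesenchymal markers gave 36 and 66 UMIs and immune markers 6 and 21 UMIs, with 0 cells holding 2 of the latter. Secretory airway markers gave 154 and 414 UMIs, or 8.28 and 4.51 per 10000. The Pecam1 cells had 0.500 and 10.1, and the Col1a2 cells 0.522 and 4.29, so the AT1 cells of Batch 1 lay above both. At least 2 such UMIs were present in 5 of 92 and 87 of 326 AT1 cells, and their origin was not tested. Scgb1a1, a secretory protein gene of club cells, was present in 18.5% and 50.3% of AT1 cells against 10.5% and 49.9% of Pecam1 cells. At least 2 erythroid UMIs were present in 92 and 323 AT1 cells (347 and 83.2 per 10000), below their level in the Col1a2 cells (678 and 144). The Sftpc-rich cells had 616 and 46.2, and the cells rich in Sftpc and Ager 268 and 24.7, so in Batch 2 the AT1 cells lay above both. Of the mesothelial genes Msln was present in 83.7% and 83.4% of AT1 cells, while Upk3b gave 1 and 2 UMIs, Wt1 3 and 0, and Lrrn4 0 and 1.

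The promoters of the AT1 genes are shown because NKX2-1, the lung epithelial transcription factor whose mRNA, Nkx2-1, was detected in 42.4% and 60.4% of the AT1 cells, binds a short core that can be searched for by its letters. RefSeq promoter windows (250 bases before to 50 after the annotated start, GRCm38.p6) were searched on both strands for CAAGTG or its reverse complement CACTTG. Of the 24 genes of the AT1 list with a window, 6 held it (25%), against 4150 of all 27025 genes with a window (15.4%). Of the AT2 list 3 of 17 genes held it (17.6%), and a gene counted where any window of it matched. The 6 matches are printed 5′ to 3′ on the strand of the gene, 30 bases each, with the core in capitals.
Ahnak, chr19:8989276-8989305, plus strand: cgggggcccggcCACTTGgagcagctctgc
Cldn18, chr9:99710144-99710173, minus strand: agctcaaccagaCAAGTGcctcttggggct
Hopx, chr5:77095218-77095247, minus strand: atctccggaggcagCACTTGaggcgcttcc
Limch1, chr5:66968404-66968433, plus strand: gtgggtcagccaCAAGTGcctgccgctccc
Spock2, chr10:60106277-60106306, plus strand: ggctttttcagaCAAGTGcatctgctaacc
Tmem37, chr1:120073772-120073801, minus strand: cgtggccgagcaCAAGTGcacgagtgcgac
The core of the TEAD factors, which carry the output of YAP and TAZ, was searched as GGAATG or CATTCC in the same way, and its letters can overlap those of the NKX2 core by 1 end base. It was present in 2 of the 24 AT1 genes with a window (8.33%), 4 of the 17 AT2 genes (23.5%) and 16.6% of all genes with a window. The Hopx match lies inside the gene, which spans chr5:77086988-77115121 on the minus strand, and not at its outermost start. A match describes the letters only, and these shares rest on few genes.

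The AT1 cells were first compared with all 7585 other filtered cells, as sums of UMIs per mouse tested with edgeR's quasi-likelihood test with the mouse as a block, Benjamini-Hochberg adjusted over all genes. Genes were called at an adjusted p below 0.05, differences are log2 with their standard error (SE, n = 2 mice), and Ager, Sftpc, Pecam1 and Col1a2 received no test. Because the cells were gated on Ager, genes that go with Ager from cell to cell had to be higher, and the test measures how alike the difference was in the 2 mice. Of 12219 genes tested 831 were higher in AT1 cells (6.8%) and 982 lower (8.04%), with 829 and 975 of these in the same direction in both mice. The median difference of all genes was -0.12. In the fit of 6 classes of cells with the other 5 weighted equally, 818 genes were higher and 213 lower, and DESeq2 on the same sums as here gave 423 and 302. The number of lower calls was thus smaller under both.

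Of the 28 genes of the AT1 list 27 were tested, and 25 were higher and 0 lower (median 3.27). Hopx lay at 17.8 and 10.8 per 10000 UMIs in AT1 cells and 1.33 and 1.89 in the other cells (log2 difference 3.18 ± 0.27, adjusted p = 1.82e-06). Aqp5 lay at 9.46 and 9.94 against 0.535 and 0.963 (log2 difference 3.81 ± 0.26, adjusted p = 3.68e-07), and Rtkn2 at 10.5 and 7.90 against 0.473 and 0.645 (log2 difference 4.10 ± 0.27, adjusted p = 3.68e-07). For these genes the AT1 values of both mice were above those of the other cells. Cldn18, the claudin of lung and stomach, lay at 31.1 and 26.6 against 2.51 and 3.99 (log2 difference 3.25 ± 0.23, adjusted p = 6.65e-07).

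Among the 10 largest differences with at least 50 CPM (counts scaled to a total of 1e6), S100a14, a calcium-binding protein gene, led with 7.68 and 6.89 against 0.299 and 0.537 per 10000 (log2 difference 4.23 ± 0.28, adjusted p = 3.68e-07). It was followed by Spock2 (4.11 ± 0.26), a matrix proteoglycan, Rtkn2, Scel (3.95 ± 0.31), which encodes sciellin, and Map6 (3.94 ± 0.44), a microtubule-associated protein. 2210011C24Rik, Arhgap22 (a GTPase-activating protein), Scnn1g (the gamma subunit of the epithelial sodium channel), Aqp5 and Akap5 (an anchor of protein kinase A) completed them at 3.78 to 3.86. Of the 10 lowest, 5 had no UMI in any AT1 cell, and against a floor of 3 UMIs per batch their levels were at least 15.7-fold and 13.0-fold lower for Ccl21a, a chemokine of lymphatic endothelium, and at least 4.97-fold and 12.6-fold lower for the endothelin receptor Ednra. Rcn3, Col5a1 and Ifi27l2a were the others. The calls of all 5 were lost with DESeq2. Loxl2, Gm13304, Fxyd1, BC117090 and Aspn held 1 to 5 UMIs over all AT1 cells. Gm13304 and BC117090 share sequence with near-identical copies, as does Ccl21a, and the split of their reads is uncertain.

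Some genes are on more than 1 list, so the counts of the lists are not separate from each other. Of the AT1 list, for example, Cldn18 is also a junction gene, and Aqp5, Clic3 and Clic5 are transport genes. Ahnak, Krt7 and Lmo7 are also on the scaffold list, Emp2 and Tspan8 on the caveolae list, and Spock2, Col4a3 and Col4a4 on the basement membrane list. Junction genes were higher almost throughout. Of 22 tight junction and polarity genes tested 21 were higher and 0 lower than in all other cells (median 2.2), while 8 of 23 were higher than in the Sftpc-rich cells and 0 of 23 than in the cells rich in Sftpc and Ager, both compared in turn later. Of 23 keratin, actin and membrane scaffold genes 15 were higher and 1 lower (1.87), and of 23 genes of caveolae, tetraspan and annexin proteins 16 were higher and 1 lower (1.50). Of 23 ion and water transport genes 12 were higher and 3 lower, of 27 basement membrane and integrin genes 16 and 5, of 33 signals to neighbouring cells 17 and 4, of 24 receptors 11 and 4, and of 21 genes of the YAP and TAZ pathway 12 and 3. Nkx2-1 lay at 3.28 and 4.83 against 0.732 and 1.49 (log2 difference 1.98 ± 0.25, adjusted p = 7.18e-05), 1 of 9 factors of the lung epithelial transcription factor list that were higher (2 of 29 were lower). Of the 24 AT2 genes 10 were lower and 1, Ctsh, higher (0.92 ± 0.21). Sftpa1 (-2.02 ± 0.34) and Sftpb (-1.50 ± 0.31), both surfactant protein genes, were lower although the other cells were mostly not rich in Sftpc, but not in the fit with the other 5 classes weighted equally.

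Of 20 cell cycle genes 8 were lower and 2 higher (median -1.29), among them the proliferation marker Mki67 (0.107 and 0.0653 against 0.210 and 0.506 per 10000, log2 difference -2.38 ± 0.56, adjusted p = 0.00929) and Top2a (-2.03 ± 0.44), a topoisomerase of dividing cells. Over all AT1 cells Mki67 had 8 UMIs and Top2a 14. The 2 that were higher, Cdkn2b and Cdkn1b, encode inhibitors of cyclin-dependent kinases, and Cdkn1c, a further inhibitor, was lower (-1.12 ± 0.31). Cdkn2b lay at 3.71 and 4.70 against 0.205 and 0.627 (log2 difference 3.56 ± 0.31, adjusted p = 2.32e-06), and Cdkn1b differed by 1.14 ± 0.29. DESeq2 ended the calls of Mki67, Top2a, Cdkn1b and Cdkn1c, the fit of 6 classes those of Mki67, Top2a and Cdkn1c, and thinning to 600 UMIs those of Mki67, Top2a and Cdkn1b, while Cdkn2b kept its call under all 3. Of 21 antioxidant genes 4 were higher and 3 lower, with Prdx6, a peroxiredoxin with phospholipase activity, at 14.9 and 21.1 against 1.97 and 6.45 (log2 difference 2.37 ± 0.25, adjusted p = 1.49e-05) and the secreted Gpx3 lower (-3.75 ± 0.31). Lipid synthesis genes had 8 of 23 higher and 0 lower, immediate early genes 2 higher and 6 lower of 18, and of 26 unfolded protein response genes 0 were called in either direction. Endothelial (4 of 6), mesenchymal (6 of 6) and immune (6 of 6) markers were lower. Without the AT1 cells that held endothelial UMIs, 25 AT1 list genes were again higher, 16 caveolae, tetraspan and annexin genes were higher and 2 lower, and 8 AT2 genes were lower and 1 higher.

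The second comparison was with the Sftpc-rich cells. It asked which genes set the AT1 cells apart from cells with high surfactant RNA at birth, in a fit of 12 sums (6 classes of cells in 2 mice). These classes were divided by Ager as well as by Sftpc, so genes that go with Ager from cell to cell had to be higher in AT1 cells. Of 11717 genes tested 379 were higher in AT1 cells (3.23%) and 435 lower (3.71%), with 378 and 433 in the same direction in both mice and a median of all genes of -0.02. The split depended on scaling. With library totals in place of TMM factors, that median moved from -0.02 to 0.22 and the calls to 515 higher and 240 lower, so small differences of either sign are relative to the scaling. Batch values below are scaled by total UMIs, and the tested difference can therefore lie outside what the batch values alone give.

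**Figure D3:**
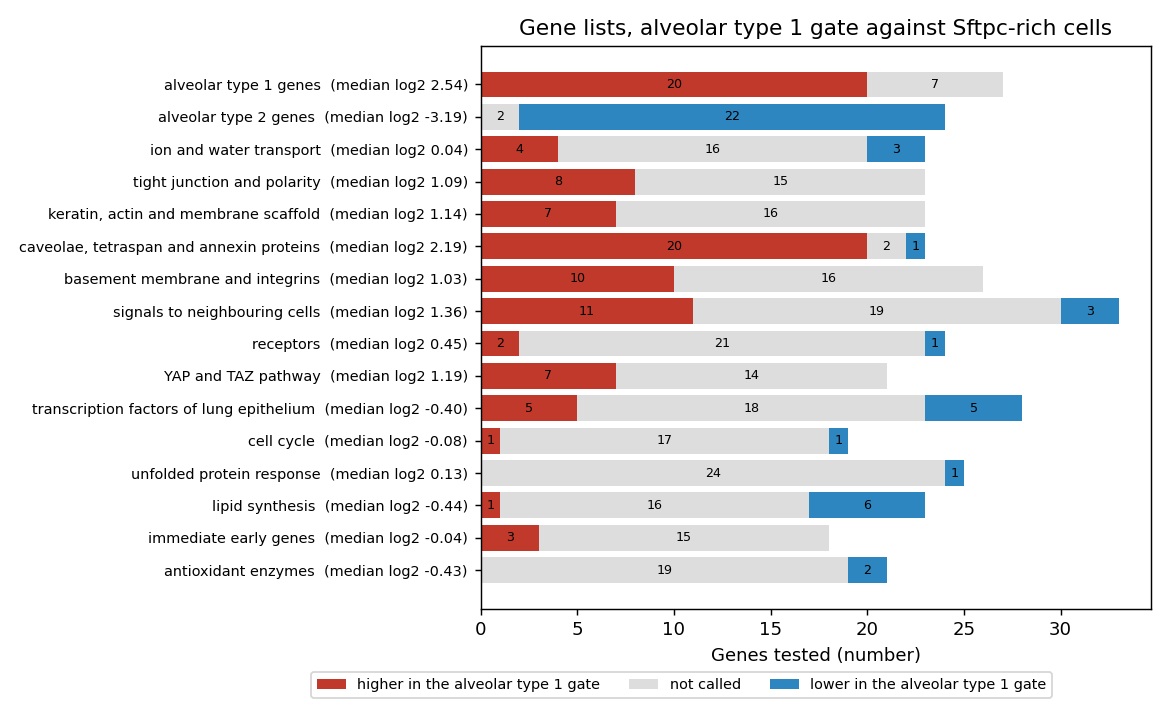
Gene lists in the AT1 cells against the Sftpc-rich cells. Each bar is the number of tested genes of a list, divided into those higher in AT1 cells (red), not called (grey) and lower (blue) at an adjusted p of 0.05, with the median log2 difference of the list beside its name. The AT1 list has a median of 2.54 and the AT2 list one of -3.19, and the caveolae, tetraspan and annexin list has 20 of 23 genes higher.

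Most AT1 genes were higher and most AT2 genes lower in the AT1 cells. Of 27 AT1 list genes tested 20 were higher and 0 lower (median 2.54), and without the cells with endothelial UMIs 23 were higher. Hopx lay at 17.8 and 10.8 per 10000 UMIs in AT1 cells and 1.29 and 2.87 in Sftpc-rich cells (log2 difference 2.40 ± 0.49, adjusted p = 0.0137). Aqp5 lay at 9.46 and 9.94 against 0.670 and 1.78 (log2 difference 2.70 ± 0.70, adjusted p = 0.0412), and Pdpn at 3.39 and 6.23 against 0.503 and 0.718 (log2 difference 2.70 ± 0.54, adjusted p = 0.0116). Both mice had higher AT1 values for the 3 markers, and the call of Aqp5 was lost when cells marked as doublets were left out.

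Most other members of the AT1 list were higher as well. Clic5, of a family of chloride intracellular channel proteins, lay at 16.4 and 21.0 against 0.407 and 3.09 (log2 difference 3.35 ± 0.43, adjusted p = 0.00205). Spock2 lay at 6.07 and 8.41 against 0.191 and 0.718 (log2 difference 3.68 ± 0.54, adjusted p = 0.00361), and Sec14l3, a lipid-binding protein, at 19.0 and 17.4 against 1.05 and 2.05 (log2 difference 3.28 ± 0.52, adjusted p = 0.00507). Emp2, a membrane protein of the tetraspan type, lay at 44.7 and 37.6 against 3.83 and 8.10 (log2 difference 2.46 ± 0.46, adjusted p = 0.00901). Timp3, an inhibitor of matrix metalloproteinases, lay at 24.7 and 55.5 against 2.47 and 15.0 (log2 difference 2.18 ± 0.28, adjusted p = 0.00205) and differed in level between the mice in both classes. Rtkn2 (3.27 ± 0.68), Akap5 (2.77 ± 0.67) and Ahnak (2.55 ± 0.32), a very large scaffold protein, were also higher. The 7 AT1 list genes not called were Clic3, Igfbp2, Gprc5a, Lmo7, Krt7, Cldn18 and Flrt3. Cldn18 lay at 31.1 and 26.6 against 8.66 and 9.38 (log2 difference 1.37 ± 0.44, adjusted p = 0.0895).

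Of the 24 AT2 genes 22 were lower and 0 higher (median -3.19), with Ctsh and Elovl1 not called. Sftpb, needed for surfactant film formation, lay at 2.04 and 7.90 in AT1 cells against 70.1 and 47.4 (log2 difference -3.84 ± 0.68, adjusted p = 0.00749). Sftpa1 lay at 1.77 and 7.82 against 97.5 and 63.7 (log2 difference -4.29 ± 0.78, adjusted p = 0.00849). Lamp3, a lamellar body membrane protein, lay at 0.269 and 0.425 against 6.63 and 3.67 (log2 difference -3.87 ± 0.38, adjusted p = 0.000699). These RNAs were thus present in the AT1 cells at a small share of the Sftpc-rich level, and they were not spread evenly. The 42 AT1 cells of Batch 2 with Sftpc at 100 to 300 per 10000 had Sftpb at 23.2 and Sftpa1 at 22.3, against 0.561 and 0.922 in the 209 with Sftpc under 20. In Batch 1 the 12 and 70 cells of the same ranges had Sftpb at 10.1 and 0.274. Median depth in these 2 ranges was 5009.5 and 2038 UMIs in Batch 2 and 1798 and 1798.5 in Batch 1. Sftpd (-3.12 ± 0.77), the phosphate transporter Slc34a2 (-3.50 ± 0.55), the lipid transporter Abca3 (-2.41 ± 0.46), the chemokine Cxcl15 (-4.13 ± 0.67) and the fatty acid-binding protein Fabp5 (-3.92 ± 0.41) were also lower. Since Sftpc chose both classes, genes that go with Sftpc from cell to cell had to be lower. In Lyz2 (-4.29 ± 0.77) and Lyz1, near-identical lysozyme genes, the split of reads is uncertain.

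Of the lists other than those of AT1 and AT2 genes, caveolae, tetraspan and annexin proteins had the highest share of calls. Here 20 of 23 genes were higher and 1 lower, with a median of 2.19. Emp2 and Tspan8, among the higher ones, are also on the AT1 list. Caveolae are flask-shaped pits of the plasma membrane that are abundant in AT1 and endothelial cells. Cav1, their main coat protein, lay at 10.5 and 8.46 against 0.527 and 0.958 (log2 difference 3.34 ± 0.31, adjusted p = 0.000557), and Sdpr, a cavin, at 20.7 and 25 against 1.77 and 4.85 (log2 difference 2.57 ± 0.24, adjusted p = 0.000557). The calcium-binding S100a6 lay at 42.8 and 52.5 against 1.53 and 5.43 (log2 difference 3.55 ± 0.40, adjusted p = 0.00122). In each case AT1 cells of both mice were well above the Sftpc-rich cells. Anxa2 (2.12 ± 0.28), which links membranes to actin, S100a11 (2.01 ± 0.26) and the tetraspanin Cd9 (1.60 ± 0.22) were higher, and Tspan1 was the gene that was lower (-2.01 ± 0.54).

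Cav1 and Sdpr are also endothelial genes, and Cav1 was present in 85.4% and 93.6% of Pecam1 cells against 79.3% and 78.8% of AT1 cells. Within Batch 1 the 38 AT1 cells with endothelial UMIs and the 54 without had Cav1 at 9.58 and 11.5 per 10000, Sdpr at 23.6 and 17.5, and Aqp1 at 4.28 and 4.54. Without all such cells 19 of the 23 genes were higher and 1 lower. Ager itself lay at 55.4 and 79.1 in the same 2 sets of cells.

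Transport, junction and cytoskeleton genes were higher in part. Of 23 ion and water transport genes 4 were higher and 3 lower (median 0.04). Scnn1g lay at 4.73 and 6.22 against 0.168 and 0.963 (log2 difference 3.01 ± 0.70, adjusted p = 0.0251), while the alpha and beta subunits of the sodium channel did not pass the test (Scnn1a 1.37 ± 0.56, adjusted p = 0.188, and Scnn1b 2.53 ± 0.74, adjusted p = 0.0650). The water channel Aqp1 lay at 4.41 and 4.56 against 0.598 and 0.786 (log2 difference 2.38 ± 0.27, adjusted p = 0.00111), and Slc12a2, a cotransporter of sodium, potassium and chloride, was lower (-1.38 ± 0.26). Of 23 tight junction and polarity genes 8 were higher and 0 lower (1.09), among them Tjp1 (1.21 ± 0.29), a scaffold of the junction, and Ocln (1.45 ± 0.37), occludin. F11r and Jup of this list were called as well, but not without the cells with endothelial UMIs. Of 23 keratin, actin and membrane scaffold genes 7 were higher and 0 lower (1.14). Actb, beta actin, lay at 70.3 and 79.4 against 18.6 and 30.7 (log2 difference 1.33 ± 0.21, adjusted p = 0.00478), and Limch1 (2.78 ± 0.46), an activator of nonmuscle myosin, the membrane linker Msn (2.37 ± 0.31), Krt19 (2.63 ± 0.69) and Scel (3.01 ± 0.51) were higher.

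Of 26 genes for basement membrane and integrins 10 were higher and 0 lower (median 1.03). Col4a3, a collagen IV chain of thin epithelial barriers such as alveolus and glomerulus, lay at 6.72 and 6.09 against 0.335 and 1.34 (log2 difference 2.59 ± 0.50, adjusted p = 0.00997), and its partner chain Col4a4 differed by 2.25 ± 0.39. The common chains Col4a1 (1.66 ± 0.27) and Col4a2 (1.76 ± 0.28) were higher too, as was the proteoglycan gene Agrn (1.90 ± 0.35).

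Signals to neighbouring cells had 11 of 33 genes higher and 3 lower (median 1.36). Vegfa, the growth factor of capillary endothelium, lay at 13.5 and 9.71 against 1.24 and 2.07 (log2 difference 2.35 ± 0.44, adjusted p = 0.00884). Pdgfa, a ligand for myofibroblast progenitors, lay at 7.25 and 3.05 against 1.15 and 1.14 (log2 difference 1.69 ± 0.44, adjusted p = 0.0409), with a higher AT1 value in Batch 1. Igfbp7, a secreted binding protein, lay at 14.8 and 8.25 against 0.694 and 1.17 (log2 difference 3.14 ± 0.34, adjusted p = 0.00108), and in Batch 1 it was at 16.5 in AT1 cells with endothelial UMIs and 12.8 in those without. Igfbp6 (2.34 ± 0.46) and Sema3a (2.49 ± 0.46), a repellent axon guidance ligand, were higher, and Areg (-2.15 ± 0.45) and Jag1 (-1.63 ± 0.38), ligands of EGFR and Notch, were lower. Csf2, the gene of GM-CSF, was also lower and had 0 UMIs in the AT1 cells. Of 24 receptors 2 were higher, the thrombin receptor F2r (1.97 ± 0.42) and Egfr (1.81 ± 0.43), and 1 was lower. The latter was Fgfr2, the FGF receptor of distal epithelium, at 0.0537 and 0.577 against 2.78 and 1.85 (log2 difference -2.69 ± 0.53, adjusted p = 0.0114), with 1 UMI behind its Batch 1 value.

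**Figure D4:**
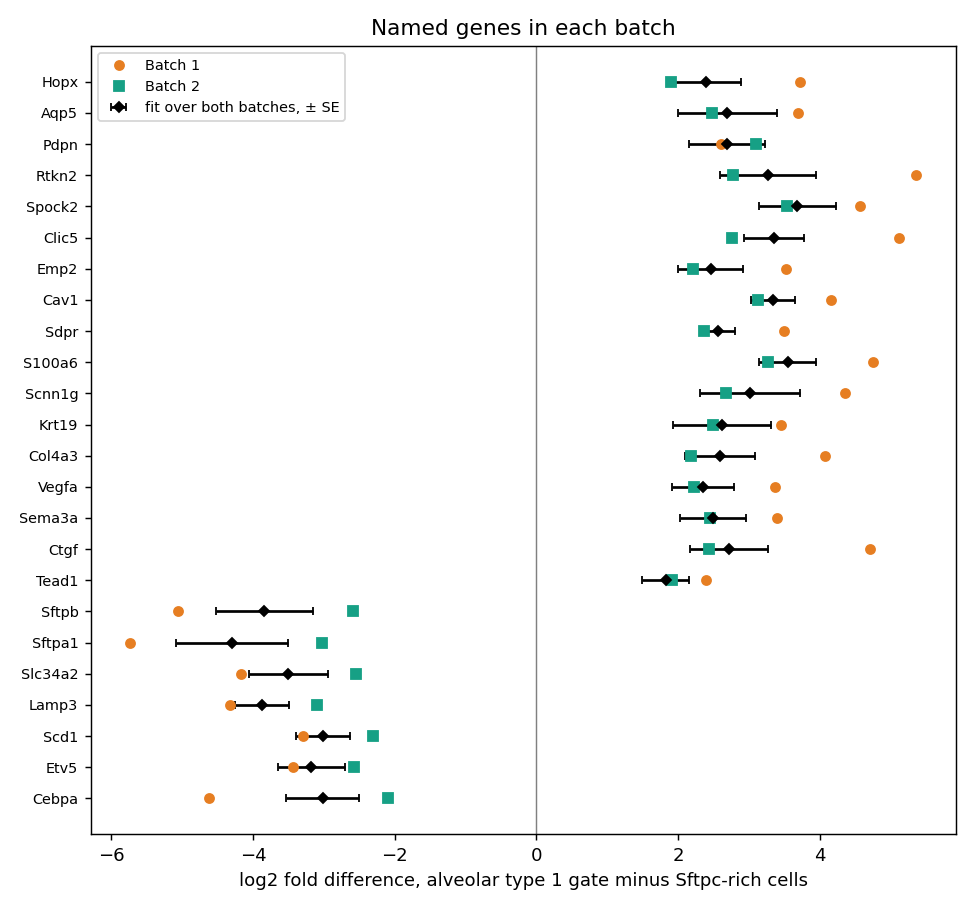
Log2 differences between AT1 cells and Sftpc-rich cells for named genes. Circles (Batch 1) and squares (Batch 2) are the 2 mice (CPM with a prior of 2 counts, scaled by total UMIs), and black diamonds with bars are the tested difference and its SE on the TMM scale, which need not be the mean of the mice. Cav1 at 3.34 and S100a6 at 3.55 are among the highest, and Sftpb (-3.84) and Lamp3 (-3.87) among the lowest.

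The YAP and TAZ pathway, which responds to stretch and cell spreading, had 7 of 21 genes higher and 0 lower (median 1.19). Tead1, the DNA-binding partner, lay at 2.79 and 4.89 against 0.479 and 1.29 (log2 difference 1.82 ± 0.33, adjusted p = 0.00850), and Ctgf, a common target gene, at 4.78 and 6.82 against 0.120 and 1.25 (log2 difference 2.72 ± 0.55, adjusted p = 0.0129). Wwtr1, which encodes TAZ, differed by 1.22 ± 0.29, and Ajuba (2.03 ± 0.42), Amotl1 (1.86 ± 0.40) and the kinase gene Lats2 (1.63 ± 0.36), which restrain or modify the pathway, were higher as well. Genes that activate and genes that restrain the pathway were thus both among those called.

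Of 28 transcription factors of lung epithelium 5 were higher and 5 lower (median -0.40). The higher ones were Hopx, Klf6 (1.85 ± 0.36), Id3 (1.89 ± 0.37), Hes1 (1.20 ± 0.31) and Id1 (1.02 ± 0.26), the last 3 helix-loop-helix repressors downstream of BMP or Notch signalling. Etv5, a target of FGF signalling, lay at 0.269 and 0.327 against 3.54 and 1.99 (log2 difference -3.18 ± 0.47, adjusted p = 0.00368), and Cebpa, a factor of AT2 maturation, at 0.0537 and 0.512 against 2.90 and 2.2 (log2 difference -3.02 ± 0.51, adjusted p = 0.00663), likewise from 1 UMI in Batch 1. Sox9, a factor of distal progenitors, Elf5 and Tfcp2l1 were lower too. Nkx2-1 did not pass the test, at 3.28 and 4.83 against 3.52 and 3.68 (log2 difference -0.12 ± 0.56, adjusted p = 0.950).

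Of 23 lipid synthesis genes 6 were lower and 1 higher (median -0.44). Of the lower ones Scd1, Lpcat1, Fasn and Acly are also on the AT2 list and were counted there, while Srebf1 and Acaca are not. Scd1, the stearoyl-CoA desaturase, lay at 0.430 and 0.773 against 4.81 and 3.86 (log2 difference -3.01 ± 0.38, adjusted p = 0.00205), and Lpcat1 (-2.88 ± 0.37), which makes surfactant phosphatidylcholine, Fasn (-2.33 ± 0.31), Acly (-1.46 ± 0.32), Srebf1 (-1.55 ± 0.41) and Acaca were also lower, while Elovl5 was higher (1.15 ± 0.24). Of 21 antioxidant genes 0 were higher and 2 lower, Cat (-2.63 ± 0.43) and Prdx3 (-1.10 ± 0.29). Of 25 unfolded protein response genes Herpud1 was lower (-1.56 ± 0.40), and the chaperone gene Hspa5 did not pass (log2 difference 0.47 ± 0.21, adjusted p = 0.236). Of 19 cell cycle genes Cdkn1b was higher (1.13 ± 0.31) and Btg1 lower (-1.66 ± 0.34), and the immediate early genes Ier3, Klf4 and Klf2 were higher of 18. The call of Klf4 was lost without the cells with endothelial UMIs.

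The 10 largest higher differences with at least 50 CPM were Msln (3.77 ± 0.72), Spock2, S100a6, Pbx4, Gipc2, Clic5, Cav1, 2210011C24Rik, Sec14l3 and Rtkn2. Msln lay at 11.6 and 13.3 against 0.335 and 1.04 per 10000, with the other mesothelial markers near 0 as given above. Pbx4, a homeobox gene, had 13 and 32 UMIs in AT1 cells and 0 and 20 in the larger Sftpc-rich sums. The 10 lowest were Cphx1, Cphx2 and Cphx3 with no UMI in AT1 cells, and Lcn2, Gdpd2, Lyz1, Sftpa1, Lyz2, Retnla and Cxcl15. The Cphx genes are near-identical homeobox copies whose reads could be split, and against a floor of 3 UMIs per batch they were at least 6.83-fold to 8.46-fold lower in Batch 1, with no such margin in Batch 2 (13 to 17 UMIs in the Sftpc-rich cells). Of the 96 named genes called in this comparison, leaving out cells marked as doublets ended 9 calls, among them those of Aqp5, Cdkn1b, F11r, Hes1, Jup, Klf4, Krt19 and Ocln. DESeq2 ended 2 (Areg and Tspan1) and the scaling without TMM 5 (Herpud1, Prdx3, Sox9, Srebf1 and Tspan1). A mitochondrial limit of 5% ended 13, a stricter Ager gate 11 and thinning to 600 UMIs 10. Tjp1 and Lats2 lost their calls under each of these, and Ocln and Amotl1 under the 5% limit. Without the mouse as a block 81 calls ended.

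The third comparison was with the 214 cells that met the Ager gate and were rich in Sftpc, and that had a median of 3169.5 and 5159 UMIs. They held Hopx in 66.1% and 84.2%, and at least 2 of Hopx, Aqp5 and Pdpn in 70.1%. The AT1 list had a median level per cell of 138 and 180 per 10000 UMIs in them, between the AT1 cells (322 and 391) and the Sftpc-rich cells (26.3 and 47.0). The AT2 list lay at 340 and 260 in them, at 510 and 352 in the Sftpc-rich cells and at 13.2 and 26.4 in the AT1 cells. Scrublet marked none of them as doublets. Whether they are cells with both programmes or 2 cells in a droplet was not tested.

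Of 11717 genes 0 were higher in AT1 cells (0) and 6 lower (0.0512%), while 477 and 619 passed an unadjusted p below 0.05 with edgeR (median of all genes 0.03). DESeq2 called 123. Lamp3 lay at 0.269 and 0.425 in AT1 cells against 4.12 and 2.57 (log2 difference -3.09 ± 0.38, adjusted p = 0.0361), and Fabp5 at 0.484 and 0.784 against 5.40 and 3.77 (log2 difference -2.80 ± 0.40, adjusted p = 0.0405). Lpcat1 lay at 1.50 and 3.20 against 13.6 and 10.7 (log2 difference -2.46 ± 0.36, adjusted p = 0.0405), and the complement gene Hc at 0.537 and 1.14 against 7.82 and 4.87 (log2 difference -2.77 ± 0.40, adjusted p = 0.0405). Tmem164 (-2.54 ± 0.33) and Rbpjl (-2.09 ± 0.31), a relative of the Notch effector RBPJ, were the other 2. All 6 were lower in AT1 cells of both mice, and all 6 calls were lost when cells marked as doublets were left out. The rule divided these classes by Sftpc alone, so genes that go with Sftpc from cell to cell had to be lower in AT1 cells.

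On the AT1 side 0 of 27 list genes were called, with a median of 0.74. Hopx lay at 17.8 and 10.8 against 7.25 and 7.13 (log2 difference 0.81 ± 0.47, adjusted p = 0.632), and Cav1 at 10.5 and 8.46 against 2.13 and 3.85 (log2 difference 1.50 ± 0.29, adjusted p = 0.115). Clic5 differed by 1.31 ± 0.40 (adjusted p = 0.297). AT1 cells were higher for these genes in both mice, but the differences did not pass. Of the AT2 genes 4 of 24 were lower (median -2.64), or 8 of 24 without the AT1 cells that held endothelial UMIs (median -2.42), and Sftpb, at 2.04 and 7.90 against 47.5 and 35.2, did not pass (log2 difference -3.15 ± 0.66, adjusted p = 0.138).

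Within the AT1 cells the AT1 and AT2 lists changed with Sftpc itself, which is given as a description since Sftpc is part of the gate. The 70 and 209 AT1 cells with Sftpc under 20 per 10000 had the AT1 list at 301 and 407 per 10000 and the AT2 list at 14.1 and 23.9. The 10 and 75 cells at 20 to 100 had 313 and 379 for the AT1 list and 58.4 and 37.5 for the AT2 list. The 12 and 42 cells at 100 to 300 had 266 and 228 for the AT1 list and 92.8 and 182 for the AT2 list. In Batch 2 the cells at 100 to 300 were also deeper, with a median of 5009.5 UMIs against 2038 in those under 20. Whether depth or droplets with 2 cells had a part was not tested. Most AT1 cells thus lay in the lowest Sftpc range in both mice, and the AT1 list was lowest and the AT2 list highest in the range next to the limit.

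**Figure D5:**
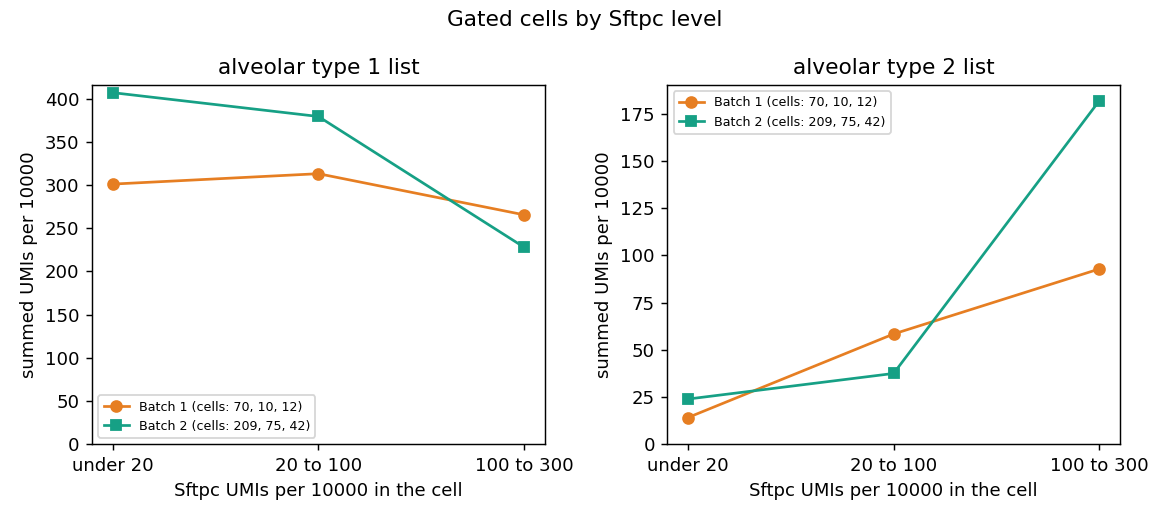
Summed level of the AT1 list and the AT2 list in AT1 cells (vertical, UMIs per 10000) by the Sftpc level of the cell (horizontal, UMIs per 10000), with circles for Batch 1 and squares for Batch 2. From the lowest range to the range next to the limit the AT1 list goes from 301 and 407 to 266 and 228, and the AT2 list from 14.1 and 23.9 to 92.8 and 182.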

How the data were processed

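The authors dissociated whole lung with collagenase and TrypLE, lysed red cells, passed the suspension through a 40 micron strainer and made Drop-seq libraries, 1 mouse in each of 2 batches. Reads were aligned to mm10 with Bowtie2 2.2.7, per the paper's methods, and UMIs were counted per gene and cell. The deposited files hold UMI counts that are not normalized, 27254 genes over 9944 cells with at least 500 genes each, and whether counting used strand is not given in the sources used here.

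The counts of the deposited files were summed per class of cells and mouse. Tests were edgeR 4.0.16 (R 4.3.3) quasi-likelihood tests with TMM, filterByExpr and the mouse as a block, since both sums of a batch come from the same animal. Deviations of the AT1 sums from their mean correlated with those of the other classes of the same mouse at 0.27 to 0.56 across genes. Against all other cells the fit used 4 sums. With 2 mice, precision is set by their number and by 186096 and 918434 UMIs in the AT1 sums. The scripts were tested on simulated data. Doublets were called with Scrublet (scanpy 1.11.5) and kept in the main results. Thinned values used 600 UMIs drawn from each cell. Cells were not counted as replicates, and no p-value was made from them. The study's own binomial tests over cells were not used.

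Levels per 10000 UMIs use all UMIs of the cells. The AT1 cells and the gene lists were chosen with earlier results of these data known. Genes named were the 4 markers, up to 6 called genes of the highest CPM in each list and comparison with further members given as values, and the 10 largest differences in each direction with at least 50 CPM and 1 direction in both mice. Alternatives were DESeq2 1.42.0, other gates, limits, scalings and filters, given at the end. Promoters came from RefSeq windows on GRCm38.p6.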

Additional observations from a re-analysis of the deposited data

Results flagged for a closer look

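The mitochondrial limit took most from the deeper Batch 2, and the cells it removed hold a signal that the comparisons above did not use. Of the Batch 2 cells that met the Ager gate and the Sftpc, Pecam1 and Col1a2 limits, 186 of 512 (36.3%, exact 95% interval 32.2 to 40.7) had over 10% mitochondrial UMIs, against 25.7% of all Batch 2 cells. Their median was 1814 UMIs and 885.5 genes, Ager lay at 41.0 per 10000 UMIs, and Hopx was present in 76.3%, Aqp5 in 73.1% and Pdpn in 62.9%, against 84.7%, 78.8% and 66.9% of the AT1 cells within the limit. Of the other classes, cells rich in Sftpc and Ager lost 15.5%, Sftpc-rich cells 30.7%, Pecam1 cells 21.2% and Col1a2 cells 23.0%. What these cells are was not tested.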

How the results depend on the processing

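With only 2 mice, leaving out either batch leaves values with no test. The mouse pairs the sums, and without that replicate block 0 genes were called against all other cells (2211 at an unadjusted p below 0.05 with edgeR), 64 against Sftpc-rich cells and 0 against cells rich in Sftpc and Ager (650 at the unadjusted p). Against all other cells (1813 calls), DESeq2 gave 725 and the fit of 6 classes with the other 5 weighted equally 1031. That fit tested 1792 of the 1813 genes and called 909 of them in the same direction. It gave 30 of them the opposite sign, among them Slc34a2 with a log2 difference of 0.14. Against Sftpc-rich cells (814 calls) the count went to 1322 with no gene filter. DESeq2 called 775 of the 814 in the same direction, a mitochondrial limit of 5% 582, the stricter Ager gate (5 UMIs, 40 per 10000) 566, and thinned cells 515. The third comparison (6 calls) depended most on the settings, with 123 calls by DESeq2, 135 with Sftpc under 100, 38 with the looser Ager gate (2 UMIs, 10 per 10000), 17 with the stricter one, 3 with the 5% limit, 1 without TMM factors, 309 with no filter, 441 with only the compared classes fitted, 114 with cells thinned, 0 with doublets left out (1003 at the unadjusted p), and 14 without the members with endothelial UMIs, which was chosen after seeing the data. Genes higher in AT1 cells made up 40 of the calls by DESeq2, 43 with cells thinned, 121 with no filter and 183 with only the compared classes fitted. They made up 11 with Sftpc under 100, 6 with the looser gate and 1 with the stricter one. The cause of this spread was not tested. The 5% limit left 195 AT1 cells of 418. Detection over both batches was 84.4% for Hopx (49.0% thinned, 64.1% at 2 or more UMIs, 83.7% and 84.7% with either batch left out), 76.3% for Aqp5 (42.8%, 58.6%, 67.4% and 78.8%) and 62.7% for Pdpn (28.9%, 36.6%, 47.8% and 66.9%). Depth limits detection per cell, since 600 UMIs already miss Hopx in many AT1 cells.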
